A study of Macaca fascicularis and Mus musculus with 42 samples.

Results

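The genes described here are 9 targets of the transcription factor p53: CDKN1A (102136063), MDM2 (102136323), SESN1 (101865915), ZMAT3 (102120315), GDF15 (102117226), BTG2 (102141340), FAS (102140989), RRM2B (101865579) and TP53I3 (102139392). They were picked by name, with earlier results of these data known, and all 9 had an entry among the 26018 entries of the monkey table. The libraries hold RNA of embryonic stem cells (ESC) of the cynomolgus monkey, Macaca fascicularis, on the way to primordial germ cell-like cells (PGCLC), the cultured counterpart of the founder cells of eggs and sperm. Transcript 3′ ends were read in 38 bulk monkey libraries and 4 mouse libraries, and levels are in RPM, the reads of a gene scaled to the same total in every library.

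The induced monkey cells came from the reporter lines 656BTAG42 and 656BTAG63, which carry Blimp1-tdTomato and TFAP2C-EGFP and by their names derive from line 656. All but 1 of the reporter libraries kept here were of 656BTAG42. The 1 of 656BTAG63 was reporter ESC library 2, so its line and the spread between libraries cannot be told apart. The labels do not say how the lines were cloned. Blimp1 is another name of PRDM1, and PRDM1 and TFAP2C are transcription factors of the early germ line. ESC were formed into aggregates in low-adherent plates with BMP4, SCF, EGF, LIF and the ROCK inhibitor Y27632, in GK15 (GMEM with serum replacement) or in aRB27 (Advanced RPMI1640 with B27). Cells sorted as BTAG positive were taken on days 2, 4, 6, 8 and 10. BTAG is read here as positive for both reporters, BT single positive as positive for the PRDM1 reporter alone, and AG mid positive as intermediate for the TFAP2C reporter. Reporter ESC grown in AITS+IF20 medium, with the same transgenes and no induction, were the starting point of these cells. Another 5 ESC libraries in the same medium came from lines with no transgene, namely CMK6 (2 libraries), 656, 681F and 22. The mouse cells were of line R8, with Blimp1-membraneVenus and Dppa3-ECFP, induced in GK15 by way of epiblast-like cells and taken on days 4 and 6.

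p53 is a DNA-binding protein that is kept scarce by the ubiquitin ligase MDM2 and becomes stable when DNA is damaged or cells are stressed. It then switches on genes that halt the cell cycle, repair DNA, alter metabolism or kill the cell, and MDM2 itself, which closes a feedback loop. p53 activity is known to limit the survival of pluripotent stem cells and its loss in mice raises the incidence of testicular teratoma, a tumour of the germ line. RNA levels of the targets do not measure the p53 protein, which was not assayed here.

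Depth ran from 1.08 M to 7.46 M reads in the monkey libraries and from 2.26 M to 2.48 M in mouse, so that 1 read stood for 0.134 to 0.929 RPM in monkey. Of the 33 reporter-line libraries, 9 were left out because their group was in doubt, which left 24. Among those left out were 3 libraries labelled BTAG in which PRDM1 was at 0, 0.50 and 4.90 RPM and 1 labelled ESC in which it was at 253 RPM. In 2 labelled AG mid it was at 145 and 194 RPM. The aRB27 BTAG libraries left out of days 6, 8 and 10 held 153, 135 and 194 RPM, within the range of the BTAG libraries kept. No aRB27 library of days 8 and 10 remained. In the libraries kept, PRDM1 was at 118 to 318 RPM in BTAG cells and at 0 to 2.59 RPM in reporter ESC. These were 3 BTAG libraries on day 2 (1 in GK15 and 2 in aRB27), 3 on day 4 (1 and 2), 5 on day 6 (2 and 3), and 4 in GK15 on days 8 and 10 (2 each). There were 3 BT libraries in aRB27 (1 on day 2 and 2 on day 4), 2 AG mid libraries (aRB27 day 2 and GK15 day 4) and 4 reporter ESC libraries. The germ cell marker list (8 genes) summed to 1495 to 2329 RPM in the BTAG libraries against 10.99 to 25.02 RPM in reporter ESC, where NANOS3 and CD38 were at 0. CD38 was also at 0 in the BTAG libraries. The labels do not say that libraries of a group were separate cultures, so p-values measure the spread between these samples, which may be technical. In bulk RNA, fewer cells of a type and less RNA per cell cannot be told apart.

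On day 2 of induction, several p53 targets stood at their lowest levels of the course. CDKN1A, which encodes p21, the inhibitor of cyclin-dependent kinases that stops the cell cycle, fell together with FAS, a death receptor of the cell surface. RRM2B, a ribonucleotide reductase subunit that supplies nucleotides for DNA repair, and ZMAT3, an RNA-binding zinc finger protein that regulates splicing, fell as well. TP53I3, a quinone oxidoreductase linked in human cells to oxidative stress and apoptosis, rose. Calls needed a limma adjusted p under 0.05 and a difference of at least 1 on the log2 scale. Of the 7 members tested 4 fell and 1 rose, where 5.51% of the 10701 genes tested fell, 10.5% rose and 16% were called in all. Risers were 65.6% of the genes called, and 54.1% after quantile normalization, which gave a median over all genes of -0.06 in place of 0.05 and kept these 5 calls of members. The members had a median log2 difference of -1.03, against 0.05 over all genes tested.

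CDKN1A was at 1.39 RPM in the GK15 library and at 10.5 and 0 RPM in the aRB27 libraries of day 2, against 24.7, 51.8, 38.2 and 15.1 RPM in reporter ESC. Every day 2 library lay below every reporter ESC library, and the library at 0 could hold up to 1.46 RPM at its depth (3 reads, counting error only). The log2 difference was -3.42 ± 0.61 (SE, limma adjusted p = 4e-04). It was -2.54 without aRB27 day 2 library 2, the one at 0, and -4.30 without aRB27 day 2 library 1, and the call held in both.

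FAS was at 1.39 RPM in GK15 and 1.17 and 2.44 RPM in aRB27 on day 2, against 14.4, 42.3, 18.9 and 5.93 RPM in reporter ESC. Its day 2 libraries rested on a few reads each and did not overlap the ESC libraries. The log2 difference was -2.77 ± 0.48 (limma adjusted p = 0.000279). RRM2B was at 14.4 RPM in GK15 and 18.7 and 12.2 RPM in aRB27, against 41.0, 88.03, 69.01 and 45.3 RPM in reporter ESC. Its groups lay far apart, with a log2 difference of -1.90 ± 0.36 (limma adjusted p = 0.000742).

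ZMAT3 was at 56.7 RPM in GK15 and 39.7 and 27.3 RPM in aRB27 on day 2, against 69.4, 118, 135 and 57.7 RPM in reporter ESC. The highest day 2 library and the lowest reporter ESC library nearly touched. The log2 difference was -1.03 ± 0.30 (limma adjusted p = 0.0176), just past the threshold of 1. It shrank below the threshold, to -0.90, -0.90 and -0.83, without aRB27 day 2 library 2, reporter ESC library 2 or reporter ESC library 3.

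TP53I3 moved the other way, with 88.3 RPM in GK15 and 23.96 and 115 RPM in aRB27 on day 2, against 20.6, 17.3, 25.9 and 13.5 RPM in reporter ESC. The lowest day 2 library fell within the ESC range and the other two lay far above it. The log2 difference was 1.81 ± 0.44 (limma adjusted p = 0.0057), and 1.25 without aRB27 day 2 library 2. That library was thus the one with the highest TP53I3 and no CDKN1A read.

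SESN1, a sestrin that restrains mTOR signalling under stress, was at 13.9 ± 2.03 RPM on day 2 against 27.3 ± 17.7 RPM in reporter ESC. BTG2, an antiproliferative partner of mRNA deadenylases, was at 11.5 ± 8.67 RPM against 21.4 ± 13.1 RPM. Neither passed the test. The log2 difference of SESN1 was -0.67 ± 0.47 (limma adjusted p = 0.345), and that of BTG2 was -0.54 ± 0.68 (limma adjusted p = 0.637). MDM2 and GDF15, a secreted cytokine of the TGF-β superfamily, had too few reads to be tested, since each reached 10 RPM in 1 of the 24 libraries. MDM2 was at 0.46, 2.34 and 1.46 RPM on day 2, against 2.06, 1.29, 2.2 and 0 RPM in reporter ESC. GDF15 was at 0.46, 1.17 and 0.49 RPM, against 2.50, 0.86, 9.23 and 0.54 RPM, and its groups overlapped as those of MDM2 did.

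With all reporter-line libraries as labelled, the 9 of doubtful group included, 136 genes were called on day 2. CDKN1A then still fell, by 3.16 on the log2 scale (limma adjusted p = 0.0369). FAS, RRM2B, ZMAT3 and TP53I3 kept their signs at limma adjusted p = 0.0621, 0.0748, 0.134 and 0.076.

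**Figure D1:**
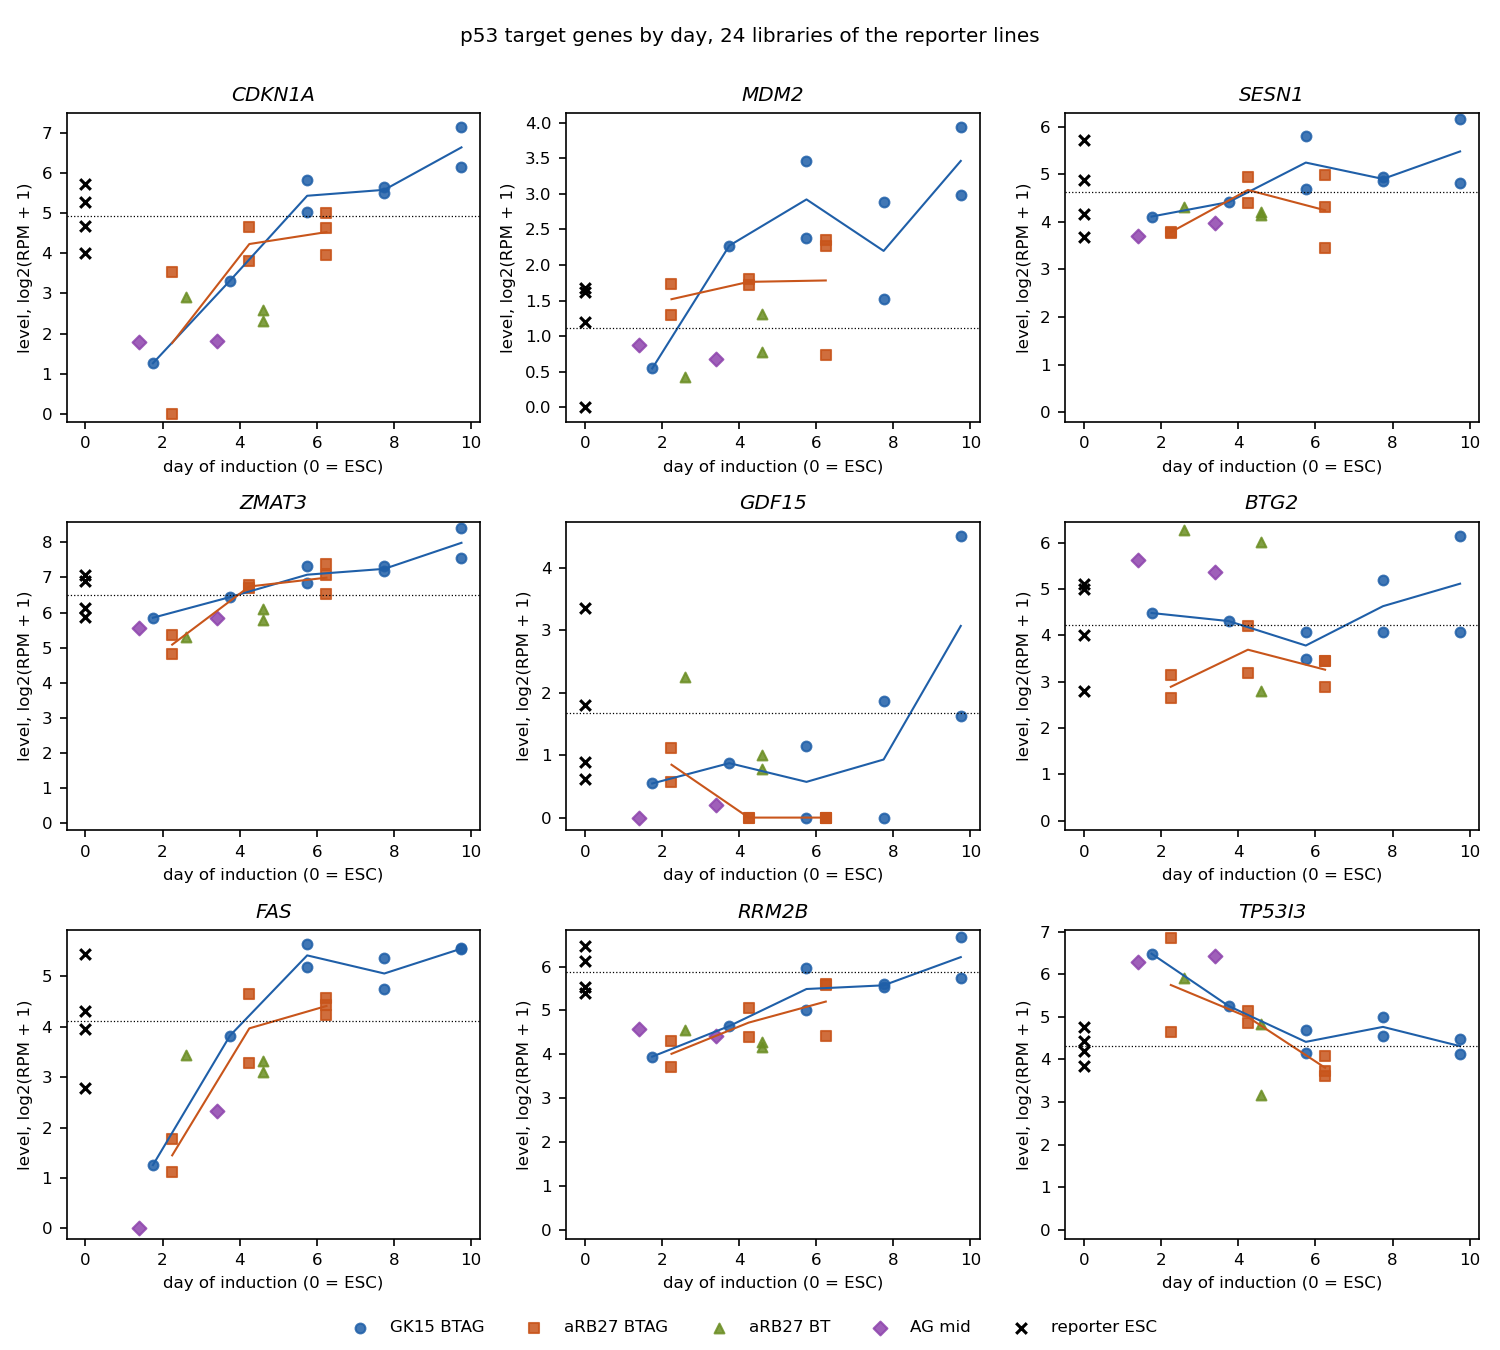
Level of each p53 target as log2(RPM + 1) against the day of induction, 1 point a library, with ESC at day 0, points shifted sideways by sort and medium, lines through the BTAG means of each medium and a dotted line at the mean of reporter ESC. CDKN1A, FAS, ZMAT3 and RRM2B start below ESC on day 2 and climb, while TP53I3 starts high and declines. In GK15, CDKN1A goes from 1.39 RPM in the 1 library of day 2 (3 reads) to 69.9 and 141 RPM on day 10.

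From day 2 onwards the targets that had dropped came back. In the BTAG cells, CDKN1A, FAS, ZMAT3 and RRM2B rose with the day and TP53I3 fell. The slope was fitted over 15 BTAG libraries of days 2 to 10 with the medium as a covariate. Its libraries of days 8 and 10 were of GK15 alone. A slope was called at a limma adjusted p under 0.05 and a size of at least 1 log2 unit over 8 days. Among the 7 members tested 4 rose and 1 fell, where 7.14% of the 9826 genes tested rose, 12.2% fell and 19.4% were called in all. Risers were 36.9% of the genes called, 51.1% with median-of-ratios scaling and 52% after quantile normalization. The same 5 members were called with both, and SESN1 with the second.

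In GK15, CDKN1A was at 1.39 RPM on day 2, 9.0 on day 4, 56.2 and 32.0 on day 6, 44.6 and 49.8 on day 8, and 69.9 and 141 on day 10. In aRB27 it was at 10.5 and 0 RPM on day 2, 24.2 and 13.1 on day 4, and 23.7, 14.7 and 31.1 on day 6. The 1 library of day 2, at 3 reads, was the lowest in GK15, whose libraries from day 6 on lay above the 1 of day 4. The slope was 0.62 ± 0.10 log2 per day (limma adjusted p = 0.000235).

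FAS in GK15 was at 1.39 RPM on day 2, 13.2 on day 4, 48.7 and 35.6 on day 6, 26 and 39.9 on day 8, and 46.4 and 45.3 on day 10. Most of its climb was over by day 6. In aRB27 it was at 1.17 and 2.44 RPM on day 2, 24.2 and 8.72 on day 4, and 17.8, 22.9 and 20.51 on day 6. The slope was 0.51 ± 0.09 log2 per day (limma adjusted p = 0.000419).

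ZMAT3 in GK15 was at 56.7 RPM on day 2, 85.8 on day 4, 159 and 113 on day 6, 158 and 144 on day 8, and 188 and 340.1 on day 10. In aRB27 it was at 39.7 and 27.3 RPM on day 2, 104 and 108 on day 4, and 132, 92.1 and 166 on day 6. In aRB27 both libraries of day 2 lay below all those of days 4 and 6. The slope was 0.30 ± 0.05 log2 per day (limma adjusted p = 0.000164).

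RRM2B in GK15 was at 14.4 RPM on day 2, 24 on day 4, 61.2 and 31.4 on day 6, 45.5 and 47.6 on day 8, and 52.6 and 101.8 on day 10. In aRB27 it was at 18.7 and 12.2 RPM on day 2, 32.2 and 19.9 on day 4, and 46.6, 20.52 and 47.6 on day 6. In aRB27 the libraries of day 2 lay below those of day 4, and days 4 and 6 overlapped. The slope was 0.27 ± 0.05 log2 per day (limma adjusted p = 0.000611).

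TP53I3 in GK15 was at 88.3 RPM on day 2, 37.2 on day 4, 16.7 and 24.7 on day 6, 22.3 and 30.7 on day 8, and 21.5 and 16.6 on day 10. In aRB27 it was at 23.96 and 115 RPM on day 2, 33.97 and 28.0 on day 4, and 12.3, 15.8 and 11.3 on day 6. The drop lay between day 2 and day 6, after which its level in GK15 showed no order by day. The slope was -0.29 ± 0.07 log2 per day (limma adjusted p = 0.00429).

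SESN1 and BTG2 had slopes of 0.14 ± 0.06 and 0.10 ± 0.07 log2 per day (limma adjusted p = 0.0978 and 0.314). edgeR and DESeq2 called the slope of SESN1 (adjusted p = 0.035 and 0.0171), as did limma with every library as labelled. MDM2 in GK15 was at 0.46 RPM on day 2, 3.83 on day 4, 9.99 and 4.22 on day 6, 1.86 and 6.36 on day 8, and 6.92 and 14.3 on day 10, all on few reads. In GK15 libraries alone, an alternative added after seeing the data, CDKN1A, FAS, ZMAT3, RRM2B and TP53I3 were called in the same directions. Each of these 5 slopes was also called without any 1 library, with the title code as a covariate, and as labelled.

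**Figure D2:**
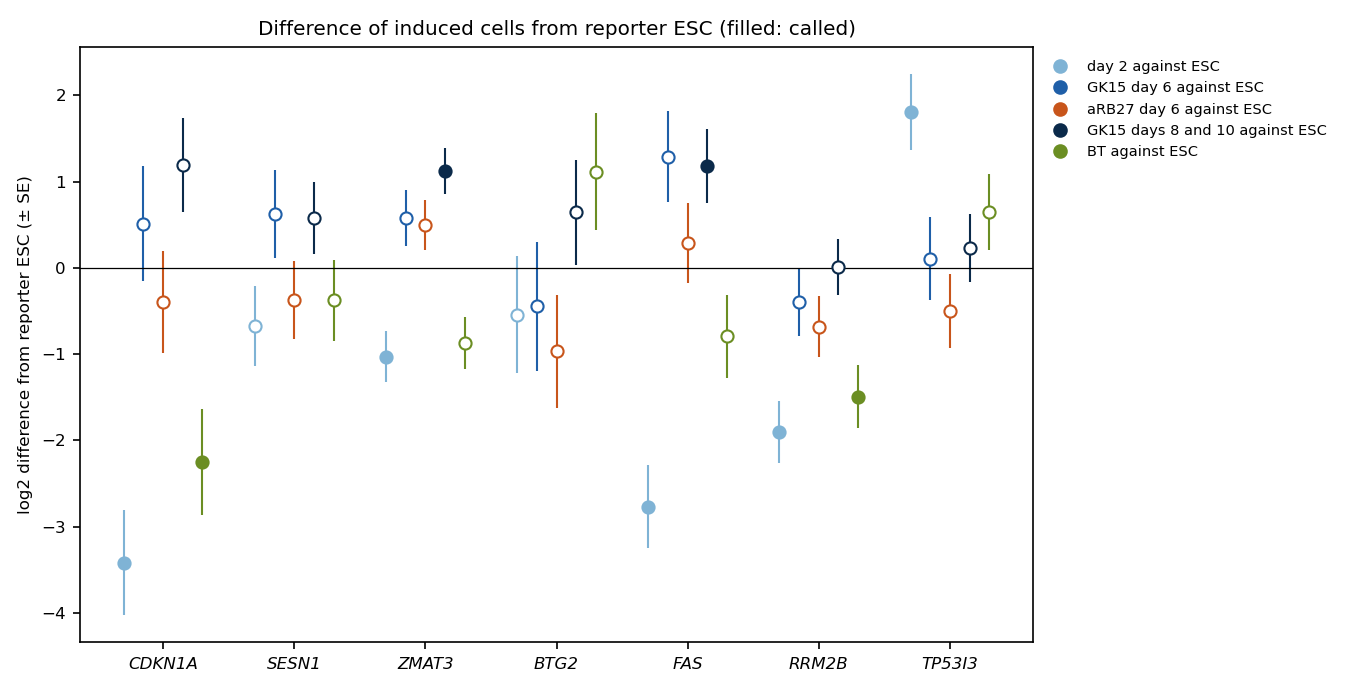
Log2 difference from reporter ESC (± SE) of the 7 tested targets in BTAG cells of day 2, of day 6 in each medium and of days 8 and 10 in GK15, and in BT cells, filled where called. CDKN1A, at -3.42 on day 2 and 1.19 on days 8 and 10, moves from below to above the zero line. Only ZMAT3 and FAS are filled above it at days 8 and 10.

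On day 6 none of the 7 members tested was called: 0 passed in GK15 and 0 in aRB27 with limma, edgeR and DESeq2, with 1 (FAS) and 0 at an unadjusted p under 0.05. Over all genes 14% rose and 10.8% fell in GK15 (24.8% in all), and 12.8% rose and 13.1% fell in aRB27 (25.9% in all). The mean of CDKN1A in GK15 was 44.1 ± 17.2 RPM (n = 2) and that in aRB27 was 23.2 ± 8.23 RPM (n = 3), against 32.5 ± 16.01 RPM in reporter ESC (n = 4). The mean of FAS in GK15 was 42.1 ± 9.30 RPM and that in aRB27 was 20.4 ± 2.55 RPM, against 20.4 ± 15.6 RPM in reporter ESC. Its log2 difference in GK15 was 1.29 ± 0.52 (limma adjusted p = 0.0687). It was called without reporter ESC library 2, the highest for FAS and the only library of line 656BTAG63. MDM2, which was not tested, was at 9.99 and 4.22 RPM in GK15 and at 3.81, 4.10 and 0.66 RPM in aRB27, against 2.06, 1.29, 2.2 and 0 RPM in reporter ESC. Both GK15 libraries lay above all reporter ESC libraries, on few reads, and the aRB27 libraries overlapped the reporter ESC libraries. GDF15 had no read in the 3 aRB27 libraries of day 6. The mean of reporter ESC (3.28 RPM) was 6.11-fold a floor of 3 reads over this group (0.538 RPM, counting error only). It was 2.42-fold the floor without reporter ESC library 3, which held most of the ESC level. The lowest reporter ESC library, at 0.54 RPM (1 read), stood at about the floor, so a lower level was not shown beside each ESC library.

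On days 8 and 10 in GK15, ZMAT3 and FAS rose above ESC. That is 2 of 7 members tested, with 0 that fell, where 15.4% of all genes tested rose, 15.7% fell and 31.1% were called in all. The share of members called was thus close to the background. ZMAT3 was at 158, 144, 188 and 340.1 RPM, against 69.4, 118, 135 and 57.7 RPM in reporter ESC, without overlap. Its log2 difference was 1.12 ± 0.27 (limma adjusted p = 0.00188). FAS was at 26, 39.9, 46.4 and 45.3 RPM, against 14.4, 42.3, 18.9 and 5.93 RPM, where the highest ESC library lay within the late range. Its log2 difference was 1.18 ± 0.43 (limma adjusted p = 0.0288). CDKN1A was at 44.6, 49.8, 69.9 and 141 RPM, against 24.7, 51.8, 38.2 and 15.1 RPM. Among reporter ESC, only library 2, of line 656BTAG63, reached into the late range. The difference of 1.19 ± 0.55 missed the threshold in limma (adjusted p = 0.0801) and passed it in edgeR (adjusted p = 0.0284) and DESeq2 (adjusted p = 0.0184). RRM2B averaged 61.9 ± 26.8 RPM against 60.8 ± 21.9 RPM (log2 difference 0.01 ± 0.32, limma adjusted p = 0.985).

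As labelled, ZMAT3 rose by 1.33 and FAS by 1.69 on the log2 scale (limma adjusted p = 0.0039 and 0.0352). The late calls depended on single libraries. ZMAT3 gave 0.90 without GK15 day 10 library 2, 1.00 (below the threshold before rounding) without reporter ESC library 1 and 0.91 without reporter ESC library 4, and was then not called. FAS was not called without GK15 day 8 library 2 (1.03), day 10 library 1 (1.17), day 10 library 2 (1.19), reporter ESC library 1 (1.12) or reporter ESC library 4 (0.74). GK15 day 10 library 2 held the highest level of 6 of the 9 members among the 24 libraries, namely CDKN1A, MDM2 (14.3 RPM), SESN1 (70.1 RPM), ZMAT3, GDF15 (21.9 RPM) and RRM2B. It had 1.33 M reads, and its sum over the ESC marker list (6 genes) was 599 RPM, against 65.9, 295 and 99.7 RPM in the other late libraries. In reporter ESC that sum was 3476 to 5866 RPM, and none of the 6 genes was at 0 in all late libraries. The part of ESC RNA in these levels was not tested.

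The medium was compared over days 2, 4 and 6, aRB27 against GK15. Limma, edgeR and DESeq2 called 0 of the 7 members tested, and 0 had an unadjusted p under 0.05. Of all genes, 0.00934% rose, 0.0748% fell and 0.0841% were called in all. The log2 differences of the members lay between -0.91 ± 0.56 (BTG2) and 0.17 ± 0.51 (CDKN1A). The change between day 2 and day 6 was also compared between the media. It differed by -1.41 ± 1.18 for CDKN1A and -1.20 ± 0.92 for FAS, aRB27 minus GK15. In limma none of the 7 members had an unadjusted p under 0.05 for this difference (adjusted p = 1 for each), and it was not run in edgeR or DESeq2. With SE of this size, a difference of 1 log2 unit between the media was not detectable for CDKN1A.

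BT single positive cells held low levels of CDKN1A and RRM2B beside ESC. Only these 2 of the 7 members tested fell and 0 rose, where 6.99% of all genes fell, 10.9% rose and 17.8% were called in all. CDKN1A was at 6.49 RPM on day 2 and 4.98 and 3.98 RPM on day 4, against 24.7, 51.8, 38.2 and 15.1 RPM in reporter ESC. All BT libraries lay below all reporter ESC libraries (log2 difference -2.25 ± 0.61, limma adjusted p = 0.0105). RRM2B was at 22.6, 16.9 and 18.5 RPM, against 41.0, 88.03, 69.01 and 45.3 RPM, also without overlap (-1.49 ± 0.36, limma adjusted p = 0.00499). ZMAT3 averaged 53.6 ± 14.7 RPM against 94.8 ± 37.1 RPM. Its log2 difference of -0.87 ± 0.30 had a limma adjusted p of 0.0387 and was too small to be called. As labelled, the differences of CDKN1A and RRM2B were -1.87 and -1.14 and not called (limma adjusted p = 0.154 and 0.133). Without reporter ESC library 4, the lowest for CDKN1A and FAS, 4 members were called in place of 2.

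On day 4 in aRB27, BT cells were also set against BTAG cells. A count of 0 of the 7 members tested passed in limma and edgeR and 1 in DESeq2, with 2 at an unadjusted p under 0.05. Of all genes, 8.05% rose, 7.08% fell and 15.1% were called in all. CDKN1A was at 4.98 and 3.98 RPM in BT cells, against 24.2 and 13.1 RPM in BTAG cells. The BT libraries lay below both BTAG libraries, with a log2 difference of -1.79 ± 0.77 (limma adjusted p = 0.136; DESeq2 adjusted p = 0.0238). BTG2 differed widely within BT cells, at 76.5 RPM on day 2 and 5.97 and 64.0 RPM on day 4. The summed endoderm list (10 genes) was 861 to 2310 RPM in BT cells, where none of the 10 was at 0 throughout, against 74.3 to 87.2 RPM in the BTAG cells of day 4 and 3.52 to 22.9 RPM in reporter ESC. AFP was at 0 in those BTAG cells. FOXA1 and APOA2 were at 0 in reporter ESC. The part of endoderm-like RNA in the BT levels was not tested.

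AG mid cells of aRB27 day 2 and GK15 day 4 were compared with the BTAG cells of the same media and days. Limma, edgeR and DESeq2 called 0 of the 7 members tested, with 2 at an unadjusted p under 0.05. Of all genes, 5.05% rose, 6.02% fell and 11.1% were called in all. BTG2 was at 48.3 and 40.5 RPM in AG mid cells, against 5.26 and 7.80 RPM (aRB27 day 2) and 18.8 RPM (GK15 day 4) in BTAG cells. The AG mid libraries lay above all 3 BTAG libraries, at a log2 difference of 1.90 ± 0.81 (limma adjusted p = 0.156). FAS had no read in the aRB27 library of day 2, which allows up to 1.24 RPM, and was at 4.03 RPM in the GK15 library of day 4, against 1.17, 2.44 and 13.2 RPM in BTAG cells (-1.47 ± 0.57, limma adjusted p = 0.11). TP53I3 stood at 77.6 and 84.6 RPM in AG mid cells, against 23.96, 115 and 37.2 RPM in BTAG cells, and it was called without aRB27 BTAG day 2 library 2. The amnion list (6 genes) summed to 658 to 873 RPM in AG mid cells, with none at 0 in both libraries, against 195 to 370.4 RPM in the matched BTAG cells, where GABRP was at 0. The ESC marker list was also higher, at 1831 to 2447.5 RPM in AG mid cells against 267 to 975 RPM in the matched BTAG cells. Of its 6 genes 2 rose and 0 fell. The part of amnion-like or ESC-like RNA was not tested.

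**Figure D3:**
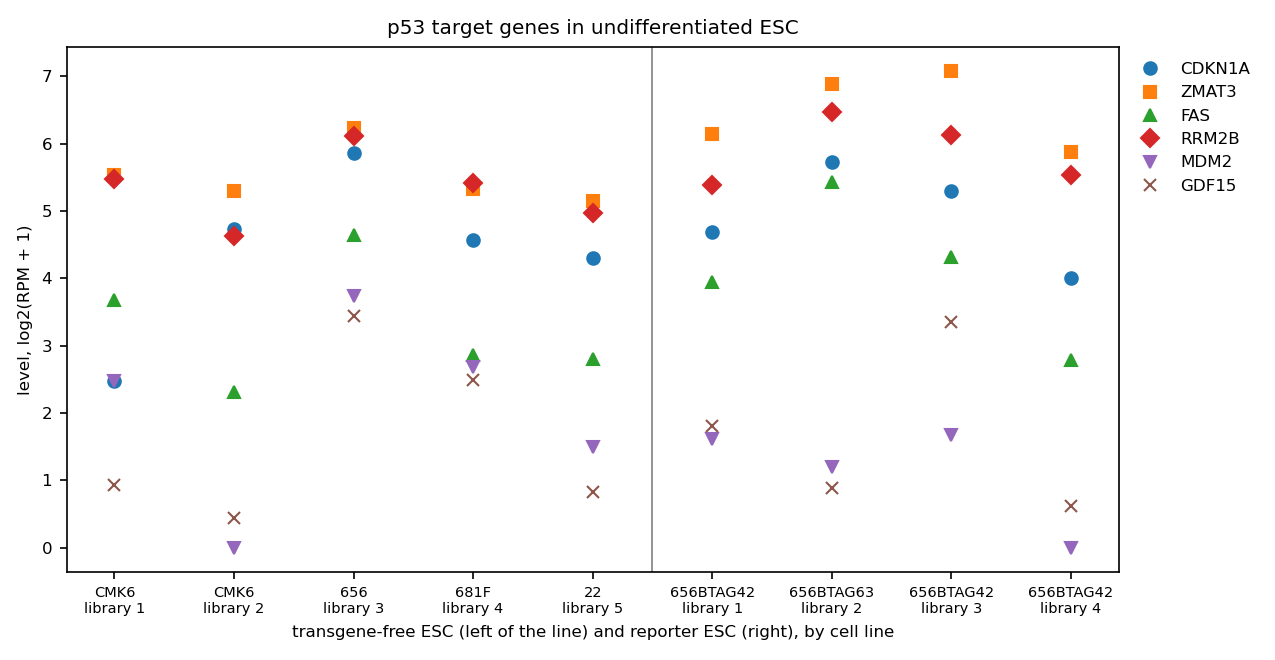
Level of 6 targets as log2(RPM + 1) in each ESC library, the 5 transgene-free libraries left of the line and the 4 reporter libraries right of it, with the cell line under each. Line 656 stands out among the transgene-free libraries, with ZMAT3 at 74.1 RPM, and the reporter lines hold the highest ZMAT3 levels.

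Undifferentiated cells differed among themselves. In transgene-free ESC, CDKN1A was at 4.55 and 25.6 RPM in the CMK6 libraries, 57.3 in 656, 22.8 in 681F and 18.7 in line 22, against 24.7, 51.8, 38.2 and 15.1 RPM in reporter ESC. The pair of CMK6 libraries differed more than the libraries of lines 681F and 22 did, and the lowest CMK6 library rested on few reads. ZMAT3 was at 45.5, 38.3, 74.1, 39.3 and 34.5 RPM in the same order, against 69.4, 118, 135 and 57.7 RPM in reporter ESC. The library of line 656, which by its name is the parent of the reporter lines, lay within the reporter range, and the other 4 lay below it.

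Of the 8 members tested in ESC, MDM2 included, 0 were called by limma and 1, ZMAT3, by edgeR and by DESeq2, where in limma 1.37% of all 11008 genes tested rose, 1.2% fell and 2.57% were called in all. ZMAT3 was also the 1 member with an unadjusted p under 0.05 in limma. Its log2 difference was -0.99 ± 0.27 (adjusted p = 0.0503 in limma, 0.0408 in edgeR and 0.0146 in DESeq2), and limma called it without the library of line 656. MDM2 was at 4.55, 0, 12.3, 5.43 and 1.82 RPM, against 2.06, 1.29, 2.2 and 0 RPM (0.96 ± 0.59, limma adjusted p = 0.379). GDF15 was at 9.84 RPM in 656 and 9.23 RPM in reporter ESC library 3, and from 0.36 to 4.61 RPM in the other ESC libraries. Line and title code cannot be told apart in this comparison.

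**Figure D4:**
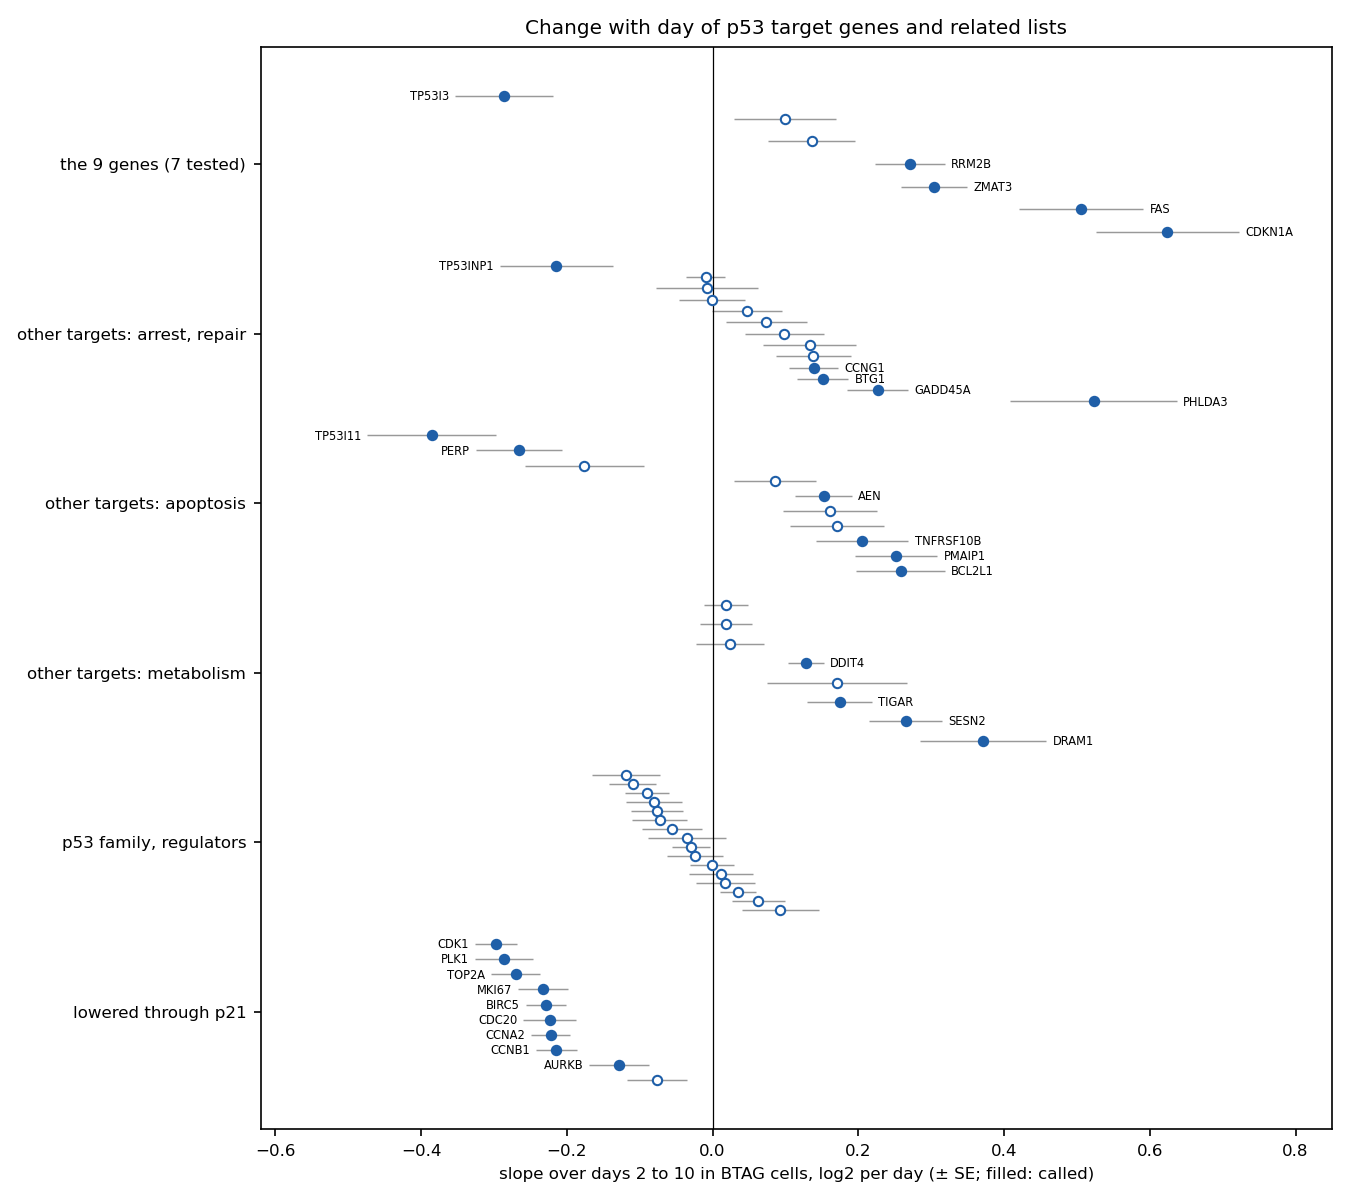
Slope over days 2 to 10 in BTAG cells, log2 per day (± SE), of the 7 tested targets and of 5 related gene lists, 1 point a gene, filled and named where called. The regulators of p53 hold no filled point, and 9 of the 10 genes lowered through p21 are filled below zero, where 12.2% of all genes fell.

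Other genes of the p53 pathway were read from 6 lists of 78 genes, of which 77 had an entry. The list of other targets in arrest and repair had 1 member that rose and 3 that fell among 14 tested on day 2 against ESC. Of all genes, 10.5% rose and 5.51% fell in that comparison. TP53INP1, a stress protein that also acts in autophagy, rose to 126 ± 40.1 RPM in day 2 cells, against 13.0 ± 7.99 RPM in ESC (log2 difference 3.35 ± 0.47, limma adjusted p = 2.68e-05). DDB2, which recognises ultraviolet damage in DNA, fell to 3.37 ± 1.36 RPM in day 2 cells, against 32.6 ± 20.0 RPM in ESC (-2.56 ± 0.56, limma adjusted p = 0.0023). RPS27L, a ribosomal protein paralogue, fell to 101.8 ± 29.6 RPM in day 2 cells, against 351 ± 90.7 RPM in ESC, and reads of such paralogues may be split by the counting. On days 8 and 10 in GK15, 4 of 14 rose and 2 fell, where 15.4% of all genes rose and 15.7% fell. PHLDA3, a repressor of AKT signalling, rose to 236 ± 71.8 RPM, against 23.9 ± 14.2 RPM in ESC (3.34 ± 0.30, limma adjusted p = 3.69e-08). SERTAD1, a cyclin-dependent kinase 4 binding protein, rose by 2.26 ± 0.35 on the log2 scale.

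Among other targets in apoptosis, 1 of 10 tested rose and 2 fell on day 2, and 3 rose and 2 fell on days 8 and 10. Of all genes, 10.5% rose and 5.51% fell on day 2, and 15.4% rose and 15.7% fell on days 8 and 10. PMAIP1, the BH3-only death protein NOXA, fell to 43.3 ± 12.3 RPM on day 2 and to 163 ± 94.3 RPM on days 8 and 10, against 533 ± 220.3 RPM in ESC. Its log2 differences were -3.43 ± 0.44 and -1.80 ± 0.40 (limma adjusted p = 1.14e-05 and 0.00101), and its slope within BTAG cells was upward at 0.25 ± 0.06 per day (limma adjusted p = 0.0032). PERP, a membrane protein of cell junctions, rose to 151 ± 32.8 RPM on day 2, against 30.0 ± 7.41 RPM in ESC, and had a downward slope of -0.27 ± 0.06. BBC3, the BH3-only protein PUMA, rose late to 22.6 ± 13.9 RPM, against 9.04 ± 6.15 RPM in ESC, and its groups overlapped (1.32 ± 0.48, limma adjusted p = 0.0296). TP53I11 fell late to 4.81 ± 3.33 RPM, against 40.2 ± 5.21 RPM in ESC.

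Among other targets in metabolism and autophagy, 2 of 9 tested rose and 3 fell on day 2, where 10.5% of all genes rose and 5.51% fell. SESN2, a sestrin like SESN1, fell to 13.0 ± 5.99 RPM, against 47.6 ± 25.5 RPM in ESC (-1.81 ± 0.37, limma adjusted p = 0.00149). GLS2, a mitochondrial glutaminase, fell to 2.91 ± 2.39 RPM, against 19.8 ± 3.61 RPM. DRAM1, a lysosomal membrane protein that promotes autophagy, rose to 12.3 ± 10.6 RPM on day 2 and to 125 ± 81.4 RPM on days 8 and 10, against 2.40 ± 2.25 RPM in ESC. Over the BTAG days, 4 of 8 tested rose and 0 fell in this list, where 7.14% of all genes rose and 12.2% fell. DRAM1 was at 0.37 ± 0.09, SESN2 at 0.27 ± 0.05 and TIGAR, which lowers glycolytic flux, at 0.17 ± 0.04 log2 per day. The median slopes of the target lists were 0.10 in arrest and repair, 0.16 in apoptosis and 0.15 in metabolism and autophagy, against -0.03 over all genes tested and 0.27 over the 7 members.

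The list of genes that p53 lowers by way of p21 in human cells holds cell cycle genes. On day 2 against ESC 0 of 10 were called in limma, edgeR and DESeq2, with 4 at an unadjusted p under 0.05. Of all genes, 16% were called by limma. On days 8 and 10 in GK15, 8 of 10 fell, where 15.7% of all genes fell. PLK1, a mitotic kinase, fell to 45.6 ± 21.4 RPM, against 246 ± 55.6 RPM in ESC (-2.47 ± 0.27, limma adjusted p = 5.44e-07). MKI67, the proliferation marker Ki-67, fell to 43.8 ± 15.2 RPM, against 172 ± 10.6 RPM (-2.004 ± 0.177, limma adjusted p = 2.93e-08). Over the BTAG days 9 of 10 fell, where 12.2% of all genes fell. CDK1, the kinase of mitotic entry, was at -0.30 ± 0.03 log2 per day (limma adjusted p = 9.84e-06). CDKN1A rose over the same days. On day 2 against ESC, CDKN1A fell and 0 of the 10 genes were called. On day 6, 3 of 10 fell in GK15 and 7 of 10 in aRB27, where 10.8% and 13.1% of all genes fell. CDKN1A was not called on day 6 in either medium. A link between CDKN1A and these genes was not tested.

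Few regulators changed. Of the 16 tested genes of the p53 family and its regulators, 0 passed on day 2 against ESC in limma, edgeR and DESeq2, with 2 at an unadjusted p under 0.05. Limma called 16% of all genes there. On days 8 and 10, 0 of 16 rose and 2 fell, where 15.4% of all genes rose and 15.7% fell. These 2 were HIPK2, a kinase that phosphorylates p53 (-1.55 ± 0.35), and DAXX, a histone chaperone that also binds MDM2 (-1.0045 ± 0.2116, limma adjusted p = 0.00108 and 0.000662). In AG mid cells HIPK2 rose to 79.1 ± 40.7 RPM, against 17.5 ± 6.66 RPM in BTAG cells (2.02 ± 0.46, limma adjusted p = 0.00503). For stress that acts through ATF4, a factor that also drives SESN2 in human and mouse cells, 6 of 9 list genes fell and 0 rose on day 2. The same counts held on day 6 in both media. Of all genes, 5.51% fell on day 2, and 10.8% (GK15) and 13.1% (aRB27) fell on day 6. TRIB3, a pseudokinase induced by ATF4, fell to 3.10 ± 1.54 RPM on day 2, against 31.1 ± 22.5 RPM in ESC (-2.997 ± 0.491, limma adjusted p = 0.000158). These comparisons share the 4 reporter ESC libraries.

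The lists of other targets were also read between the sorted groups and ESC. In BT against BTAG cells of day 4 in aRB27, 1 of 14 tested genes of arrest and repair rose and 2 fell, 1 of 10 in apoptosis rose and 0 fell, and 1 of 9 in metabolism and autophagy rose and 2 fell, where 8.05% of all genes rose and 7.08% fell. PHLDA3 fell to 7.36 ± 0.163 RPM in BT cells, against 209 ± 68.8 RPM in BTAG cells (-4.61 ± 0.43, limma adjusted p = 4.49e-07). DDIT4, an inhibitor of mTOR signalling, fell to 9.64 ± 1.86 RPM, against 135 ± 9.04 RPM (-3.68 ± 0.46, limma adjusted p = 1.32e-05). GADD45A, a growth arrest protein, rose to 116 ± 27.1 RPM in BT cells, against 48.7 ± 24.8 RPM in BTAG cells (1.31 ± 0.39, limma adjusted p = 0.0248), so that the lists held calls in both directions.

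Against ESC, BT cells had 1 riser and 3 that fell in arrest and repair, 1 and 1 in apoptosis, and 2 and 2 in metabolism and autophagy, of 14, 10 and 9 tested, where 10.9% of all genes rose and 6.99% fell. DRAM1 rose to 123 ± 22.6 RPM in BT cells, against 2.40 ± 2.25 RPM in ESC (5.51 ± 0.57, limma adjusted p = 9.38e-07). PMAIP1 fell to 33.8 ± 15.8 RPM, against 533 ± 220.3 RPM (-3.80 ± 0.44, limma adjusted p = 3.79e-06). In AG mid against BTAG cells, 1 of 14 rose and 1 fell in arrest and repair, and 0 of 9 rose and 1 fell in metabolism and autophagy. In apoptosis 0 of 10 passed in limma, edgeR and DESeq2, with 0 at an unadjusted p under 0.05. The share over the 3 lists was no higher than the 11.1% of all genes called. DRAM1 was at 0.28 ± 0.184 RPM in AG mid cells, against 30.4 ± 27.5 RPM in BTAG cells (-4.51 ± 0.67, limma adjusted p = 0.000117).

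In transgene-free against reporter ESC, 0 of 15 tested genes of arrest and repair rose and 2 fell, 0 of 10 in apoptosis rose and 1 fell, and 1 of 9 in metabolism and autophagy rose and 0 fell, where 1.37% of all genes rose and 1.2% fell. GADD45A fell to 20.9 ± 13.4 RPM in transgene-free ESC, against 70.8 ± 32.1 RPM in reporter ESC (-1.80 ± 0.34, limma adjusted p = 0.00565). PLK2, a polo-like kinase, fell to 15.3 ± 8.71 RPM, against 45.9 ± 13.7 RPM (-1.66 ± 0.34, limma adjusted p = 0.0126). FDXR, a mitochondrial ferredoxin reductase, rose to 24.5 ± 7.98 RPM, against 8.95 ± 2.18 RPM (1.33 ± 0.28, limma adjusted p = 0.0142).

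Likeness to the members was read as Pearson's r of log2(RPM + 1) over the 24 libraries, which share sort, day and depth, and is a description of these libraries. Of 9981 other named genes the 5 most like CDKN1A were SESN2 (r = 0.895), RRM2B (0.893), ZMAT3 (0.884), GRTP1 (0.882) and EDA2R (0.88). RRM2B and ZMAT3 are members, and SESN2 is in the list of other targets. FAS ranked 7 and SESN1 ranked 47 in likeness to CDKN1A, whereas BTG2 ranked 3691 and TP53I3 9642. The gene most like FAS was TIGAR (r = 0.915), followed by STK32B, GRTP1, ECI2 and CDKN1A (0.847). MDM2 was most like ATP6V1E1 (0.842), KHDC1L, HADHB, LECT1 and WDPCP. GDF15 was most like TMEM9 (0.733), AADACL3, PEBP1, PPP1R14A and RASSF4, and both of these members were read at low counts.

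In mouse PGCLC, 8 of the 9 genes were analysed, and 4 had enough reads to be tested between day 6 and day 4. None of the 4 was called by limma, edgeR or DESeq2, with 2 at an unadjusted p under 0.05, where 1.2% of the 8255 genes tested rose, 1.39% fell and 2.59% were called in all. Risers were 46.3% of the genes called, and 56.5% after quantile normalization. Cdkn1a (12575, GRCm38 chromosome 17, 29090976 to 29100727, plus strand) was at 17.2 and 26.6 RPM on day 6, against 8.39 and 13.3 RPM on day 4. The groups did not overlap, and the log2 difference was 0.96 ± 0.32 (limma adjusted p = 0.139). Mdm2 (17246, chromosome 10, 117688875 to 117710758, minus strand) was at 128 and 175 RPM on day 6, against 117 and 101.2 RPM on day 4 (0.45 ± 0.17, limma adjusted p = 0.171).

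Zmat3 (22401) was at 40.7 and 73.9 RPM on day 6, against 58.7 and 43.3 RPM on day 4, and Btg2 (12227) at 17.6 and 38.3 RPM, against 29.6 and 26.5 RPM, both with overlap. Sesn1, Rrm2b, Gdf15 and Fas stayed between 0.40 and 4.62 RPM in the 4 mouse libraries. The tables of the 2 species were normalized separately and differ in annotation. Mdm2 was at 101.2 to 175 RPM in the mouse cells, whereas MDM2 was at 0 to 14.3 RPM in the 24 monkey libraries. The cause of this gap was not tested.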

How the data were processed

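Values were deposited as RPM, for which the authors scaled the 3′ reads of each gene to the total of its library, per the file names. Libraries started from 1 ng of total RNA, per the labels' protocols. The submitters' processing notes list TopHat 1.4.1, Cufflinks 2.2.0 and cutadapt 1.3 and, for mouse, GRCm38, giving none of them a role. No monkey position is printed, because the sources used here name no monkey build. Mouse positions come from the GENCODE annotation of GRCm38. Near-identical copies may share reads, and use of strand is not stated.

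Low values were whole multiples of 1 read in 99.4% to 99.8% of cases in monkey (tolerance 0.1 steps, up to 100 steps), and reads were recovered from that step. Among 703 pairs of monkey libraries 0 were identical, and their highest correlation was 0.979.

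The members and gene lists were chosen with earlier results of these data known. Named beside the 9 genes were up to 3 called genes of each list with the largest differences and the 5 genes most like CDKN1A, MDM2, GDF15 and FAS. The slope of PMAIP1 was named after its value was seen.

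limma 3.58.1 in R 4.3.3 fitted log2(RPM + 1) with a trend on mean level. Genes entered a fit if 2 or more of its libraries reached 10 RPM. The scale understates changes of low genes. The 24 libraries shared 1 fit, so lone libraries borrowed the spread of others. The slope used 15 BTAG libraries, the ESC lines 29 libraries, and mouse its 4. Of the 9 members 7 were tested and 2 were not. P-values were Benjamini-Hochberg adjusted over all genes tested. The alternatives were DESeq2 1.42.0 and the quasi-likelihood test of edgeR 4.0.16 on recovered read counts, quantile and median-of-ratios scaling, a filter on a mean of 20 RPM or none, a pseudocount of 0.1 or 10, the libraries as labelled, the code in the titles (MS134, MS162) as a covariate, and leaving out single libraries. The fits were tested on simulated data. The 96 mouse spike-in entries were not used. Some genes are not reported here.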

Additional observations from a re-analysis of the deposited data

Results flagged for a closer look

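ZMAT3 was at 74.05 RPM in transgene-free ESC library 3, of line 656, far above the other 4 transgene-free libraries, which lay between 34.5 and 45.5 RPM. Its gap to the nearest library exceeded the 95% limit of Dixon's test for a group of 5. Of 20 combinations of a gene and a group examined, this was the 1 that did so, and chance gives about 1 in 20.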

How the results depend on the processing

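No value of a called member reversed. Single libraries left out kept the call in 122 of 133 cases, and other settings in 131 of 143. The cause of the lost calls was not tested. ZMAT3 on day 2 lost its call with a pseudocount of 10 (-0.90), without a filter (-1.03), as labelled (-0.92) and with the title code (-0.95), and late FAS with a pseudocount of 10 (0.81) and without a filter (1.18). CDKN1A in BT cells lost it with a pseudocount of 0.1 (-2.43). No paired analysis was possible because the labels give no replicate numbers that link libraries across groups. The title code could not be fitted for transgene-free against reporter ESC, and leaving out a library that is alone in its group was not run. Depth limits MDM2, GDF15 and, on day 2, FAS and CDKN1A, which rest on few reads.

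Counts of called members changed to 1 with a pseudocount of 0.1 (BT against ESC, and AG mid), to 1 late with a pseudocount of 10 or a mean of at least 20 RPM, to 1 in transgene-free against reporter ESC with edgeR and DESeq2, and to 1 for BT against BTAG on day 4 with DESeq2. As labelled they were 1 on day 2 and 0 for BT against ESC. With 1 library left out, members called were 4 to 5 on day 2, 0 to 2 late, 5 to 6 for the slope, 2 to 4 for BT against ESC, 0 to 1 for GK15 day 6, AG mid and transgene-free ESC, and 0 to 0 elsewhere.

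Counts over all genes with a pseudocount of 10 were 1692 (GK15 day 6), 1622 (aRB27 day 6), 1012 (day 2), 1959 (GK15 days 8 and 10), 1115 (BT against ESC), 145 (transgene-free ESC) and 94 (mouse). With a mean of at least 20 RPM, where fewer genes were tested, they were 1464, 1538, 963, 1804, 1018, 141 and 130 in this order, 967 for BT against BTAG, 696 for AG mid and 1186 for the slope. Between the media they were 3 and 22 with pseudocounts of 0.1 and 10, 37 without a filter, 5 with the mean filter and with both scalings, 4 with edgeR and with the title code, 49 with DESeq2 and 1 as labelled. DESeq2 called 528 genes in transgene-free ESC and 138 in mouse, where 0 were called without a filter. As labelled, counts were 0 for GK15 day 6 and for AG mid, 136 on day 2, 403 for BT against BTAG and 851 for BT against ESC. GK15 libraries alone, chosen after seeing the data, gave 1104 for the slope. With 1 library left out, the ranges were 3 to 18 (media), 1558 to 1683 (day 2), 2042 to 2626 (GK15 day 6), 2554 to 2808 (aRB27 day 6), 3233 to 3360 (GK15 days 8 and 10), 1101 to 1422 (BT against BTAG), 1545 to 2026 (BT against ESC), 1039 to 1122 (AG mid), 1367 to 2112 (slope), 74 to 475 (transgene-free ESC) and 0 to 195 (mouse).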
